A study of Mus musculus with 31 samples.

Results

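GARP, the product of *Lrrc32*, is described here together with the TGF-β ligands, the latent TGF-β binding proteins and the integrin subunits that handle the same latent complex. The genes were chosen by name, as the rows of the count table whose gene symbol is *Lrrc32*, *Tgfb1*, *Tgfb2*, *Tgfb3*, *Ltbp1*, *Ltbp2*, *Ltbp3*, *Ltbp4*, *Itgb8* or *Itgav*, which gave 10 of 39179 genes. TGF-β is made as a latent complex in which its propeptide keeps the cytokine inactive. GARP tethers this complex to the cell surface, latent TGF-β binding proteins store it in the extracellular matrix, and the integrin αvβ8 releases the active cytokine. GARP is best known from activated regulatory T cells and platelets, and other cells, endothelial cells among them, can carry it too.

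The study asked how a topical glucocorticoid (GC) acts on melanoma, and whether the glucocorticoid receptor (GR) of the cancer cells is needed. RNA from 20 tumors and 11 cultures was sequenced from the 3′ ends of the messages. The melanoma line 20967 derives from C57BL/6 mice of the genotype Nras+LSL-G12D;Tyr::CreERT2+/o, and in GR KO cells the GR gene *Nr3c1* was edited with CRISPR-Cas9. The methods describe colonies grown from single edited cells, so a difference between genotypes and a difference between a clone and its parental line cannot be told apart.

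Tumors grew in the skin of wild type C57BL/6 mice, whose own cells kept GR in all 4 tumor groups. There were 5 parental control tumors, 5 parental tumors treated with GC, 5 GR KO control tumors and 5 GR KO tumors treated with GC, each from its own mouse. The GC was clobetasol propionate, as a 0.05% ointment 3 times weekly. Cultures of the same cells received the solvent DMSO (3 parental and 3 GR KO cultures) or clobetasol propionate (2 parental and 3 GR KO cultures). Their dose is 10 µM in the treatment label and 1 µM in the library names, and which was used could not be settled. Nothing says that the cultures of a group were grown separately, so p-values for cultures measure the spread between these samples, which may be technical. Library totals ran from 14441166 to 26386770 counts. Levels are in CPM, counts scaled to a common library size over all 31 libraries. A gene is called higher or lower where edgeR's adjusted p is below 0.05 and the change is at least 1.5-fold.

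Some tumor libraries stood apart. The predicted gene *Gm26924* took 11.6%, 8.97%, 6.57% and 16.3% of the counts of GR KO control tumors 1, 2, 3 and 5, and 0.248% of those of GR KO control tumor 4. It also took 5.55% in parental control tumor 1 and 6.65% in GR KO GC-treated tumor 4, and from 0.439% to 2.89% in the other 13 tumors. Genes with at least 1 count numbered 13442, 14887, 15150 and 14335 in GR KO control tumors 1, 2, 3 and 5, against 16980 in tumor 4. Most results that use tumors are therefore also given without the 6 tumors in which *Gm26924* took over 5% of the counts. That alternative was picked once the values were known. It leaves the GR KO control group with 1 tumor, assumed to vary like those of the other groups.

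The edited gene was examined first. *Nr3c1* stood at 54.1 ± 7.21 CPM in parental and 27.0 ± 5.45 CPM in GR KO control tumors (SD, n = 5 each), and was called lower in GR KO (log2 fold change -1.02, SE 0.24, edgeR adjusted p = 0.0313). Without the 6 tumors high in *Gm26924* it was not called (-0.71, adjusted p = 0.989). With GC the genotypes overlapped, at 42.4 ± 12.5 CPM in parental and 41.0 ± 14.35 CPM in GR KO tumors (SD, n = 5 each). In DMSO cultures *Nr3c1* stood at 33.6 ± 2.87 CPM in parental and 21.3 ± 4.59 CPM in GR KO cells (SD, n = 3 each), a difference that was not called (log2 fold change -0.67, SE 0.22, edgeR adjusted p = 0.0840). Counts from the 3′ end do not read an edit elsewhere in the gene, so these levels check little about the knockout.

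Known GR target genes gave a further view of the labels. Of 6 such genes 5 passed the filter on low counts in cultures, and in parental cells all 5 were called higher with GC. *Tsc22d3*, which encodes the anti-inflammatory protein GILZ, stood at 13.8 ± 2.61 CPM with DMSO (SD, n = 3) and 118 ± 2.25 CPM with GC (SD, n = 2). In GR KO cells it stood at 18.4 ± 1.66 CPM with DMSO and 17.4 ± 3.36 CPM with GC (SD, n = 3 each). There 0 of the 5 were called by edgeR, with 0 at an unadjusted p below 0.05. In tumors 4 of the 6 were called higher with GC in each genotype, and in GR KO tumors the host cells keep GR. *Tsc22d3* rose in GR KO tumors by 1.77 on the log2 scale (SE 0.25, edgeR adjusted p = 0.000403), and without the 6 tumors high in *Gm26924* none of the 4 was called there (*Tsc22d3* 1.41, adjusted p = 0.347).

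The labelled cell type was compared with its defining genes. Of 8 genes of the melanocyte lineage, *Sox10*, *Mlana*, *Tyr* and *Dct* had 0 counts in all 11 cultures, and *Tyr* had 0 counts in all 20 tumors as well. *Mitf*, a transcription factor of the lineage, was the most abundant of the 8, at 10.3 ± 1.51 CPM in parental and 4.07 ± 0.939 CPM in GR KO DMSO cultures (SD, n = 3 each), and was called lower in GR KO (log2 fold change -1.36, SE 0.23, edgeR adjusted p = 0.00380). With GC edgeR called 0 of the 5 lineage genes tested in tumors, with 1 in parental and 0 in GR KO tumors at an unadjusted p below 0.05. *Sox10*, *Mlana*, *Tyr* and *Dct* were thus not detectable in the cultured cells at this depth, where 3 counts correspond to 0.139 to 0.213 CPM.

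*Lrrc32* lies on mouse chromosome 7 (GRCm38, chr7:98489283-98502181, plus strand), and none of its exons overlaps an exon of another annotated gene. In parental control tumors 1 to 5 its level was 68.1, 54.9, 68.6, 39.7 and 69.1 CPM, and in parental tumors treated with GC it was 25.2, 12.8, 21.3, 21.7 and 27.7 CPM. All 5 treated tumors lay below all 5 controls. *Lrrc32* fell by 1.48 on the log2 scale (SE 0.26, 2.78-fold lower, edgeR adjusted p = 0.00491). The two-sided exact permutation test gave p = 0.00794, the smallest that 5 against 5 tumors allow. It was the 1 gene of the 10 called, where 0.779% of the 15919 genes tested were called. Without the 6 tumors high in *Gm26924* its log2 fold change was -1.41, adjusted p = 0.00687 by edgeR, and over the 10 fits that each left out a tumor of these groups edgeR's adjusted p ran from 0.00566 to 0.0222. The study singled out *Lrrc32* from the parental comparisons of these samples, so its p there is not independent evidence.

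In GR KO tumors the level did not separate by treatment. Control tumors 1 to 5 had 45.2, 67.0, 93.5, 63.2 and 45.2 CPM, and tumors treated with GC had 44.6, 46.9, 47.1, 95.2 and 66.6 CPM. These groups overlapped over most of their range, with a log2 fold change of -0.03, SE 0.25, edgeR adjusted p = 0.960, an interval from -0.55 to 0.50, and an exact permutation p = 0.952. Between control tumors of the genotypes *Lrrc32* overlapped too (log2 fold change 0.05, SE 0.25, edgeR adjusted p = 0.942). With GC, all 5 GR KO tumors lay above all 5 parental tumors (log2 fold change 1.49, SE 0.26, edgeR adjusted p = 0.00517; exact permutation p = 0.00794). *Lrrc32* was the 1 gene of the 10 called there, against 0.634% of all genes tested, and without the 6 tumors high in *Gm26924* its value was 1.25, adjusted p = 0.0174. That comparison shares its parental tumors with the GC comparison above.

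The change with GC in parental tumors minus that in GR KO tumors was tested directly. For *Lrrc32* it was -1.45 on the log2 scale (SE 0.36, edgeR adjusted p = 0.0820), with an interval from -2.20 to -0.70, and missed the threshold. DESeq2 called it (adjusted p = 0.0139), as did edgeR without GR KO control tumor 4 (adjusted p = 0.0309). Over the 20 fits that each left out a tumor edgeR's adjusted p ran from 0.0309 to 0.169. Without the 6 tumors high in *Gm26924* the difference was -1.22, adjusted p = 0.777 by edgeR. Of the 10 genes edgeR called 0, against 0.195% of all 15919 genes tested. At an unadjusted p below 0.05 were 5 of the 10 and 3192 of all genes, and DESeq2 called 2, *Lrrc32* and *Tgfb3*. Without GR KO control tumor 4 edgeR called 2 of them, and the number of all genes called went from 31 to 1284.

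**Figure D1:**
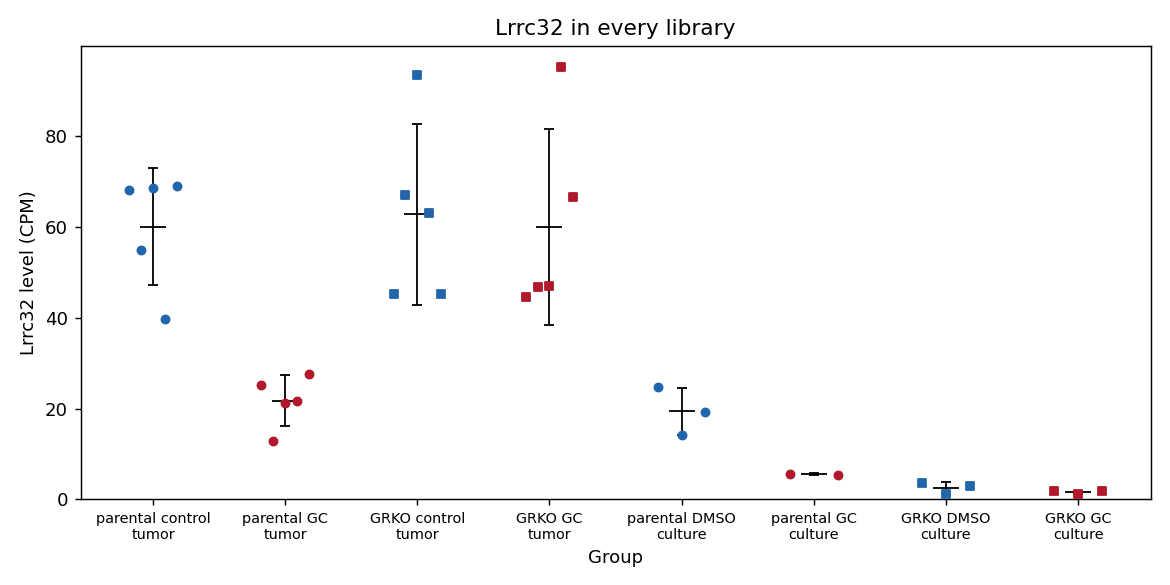
*Lrrc32* level in CPM (vertical axis) in each library of the 8 groups (horizontal axis); circles are parental, squares GR KO, blue control or DMSO, red GC, and bars show the mean and SD. The 5 parental tumors treated with GC lie between 12.8 and 27.7 CPM, below every other tumor.

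In culture, where the RNA comes from the melanoma cells without a host, *Lrrc32* stood at 24.7, 14.2 and 19.3 CPM in parental cells with DMSO and at 5.67 and 5.37 CPM with GC. Both treated cultures lay below all 3 DMSO cultures. The log2 fold change was -1.82 (SE 0.43), and edgeR's adjusted p of 0.0987 missed the threshold. DESeq2 (adjusted p = 0.00136) and edgeR without a filter on low counts (adjusted p = 0.0212) called it. Over the 5 fits that each left out a culture it ran from 0.0864 to 0.650 by edgeR. The exact permutation p was 0.1, the smallest that 3 against 2 cultures allow. Of the 9 genes tested in cultures edgeR called 0, against 0.878% of all 12525 genes. At an unadjusted p below 0.05 by edgeR were 2 of the 9 and 1062 of all genes, and DESeq2 called 1, *Lrrc32*.

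GR KO cells held less *Lrrc32* before any treatment. With DMSO they had 3.67, 1.13 and 2.95 CPM, from 68, 23 and 54 counts, and all 3 lay below all 3 parental DMSO cultures. The log2 fold change was -2.92 (SE 0.39, 7.58-fold lower, edgeR adjusted p = 0.000788), and the exact permutation p was 0.1, the smallest that 3 against 3 allow. With GC they had 1.75, 1.23 and 1.81 CPM, from 30, 26 and 29 counts. These overlapped the GR KO DMSO cultures, with a log2 fold change of -0.66, SE 0.39, edgeR adjusted p = 0.976 and an interval from -1.53 to 0.20. With GC in GR KO cultures edgeR and DESeq2 called 0 of the 9 genes and 0% of all genes, with 0 of the 9 and 237 of all genes at an unadjusted p below 0.05 by edgeR. The parental change with GC minus the GR KO change was -1.16 for *Lrrc32* in culture (SE 0.57, edgeR adjusted p = 0.576). For that difference edgeR and DESeq2 called 0 of the 9 genes, with 0 of the 9 and 1075 of all genes at an unadjusted p below 0.05 by edgeR, against 0.295% of all genes called.

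From the highest mean to the lowest, *Lrrc32* stood at 62.8 ± 19.9 CPM in GR KO control tumors, 60.1 ± 12.9 CPM in parental control tumors, 60.1 ± 21.6 CPM in GR KO GC-treated tumors and 21.8 ± 5.62 CPM in parental GC-treated tumors (SD, n = 5 each). Below these came parental cultures with DMSO at 19.4 ± 5.24 CPM (SD, n = 3) and with GC at 5.52 ± 0.210 CPM (SD, n = 2), then GR KO cultures with DMSO at 2.58 ± 1.31 CPM and with GC at 1.60 ± 0.323 CPM (SD, n = 3 each). Neighbours overlapped among the first 3 groups, between parental GC-treated tumors and parental DMSO cultures, and between both GR KO culture groups. Control tumors held more *Lrrc32* than DMSO cultures in both genotypes, with log2 fold changes of 1.63, SE 0.33, edgeR adjusted p = 0.000124 in the parental line and 4.61, SE 0.39, edgeR adjusted p = 2.56e-11 in GR KO. After omission of the 6 tumors high in *Gm26924* these were 1.56, adjusted p = 0.000172 in the parental line and 4.56, adjusted p = 3.81e-09 in GR KO. GR KO control tumors thus overlapped parental control tumors in *Lrrc32*, while GR KO DMSO cultures lay below parental ones.

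Among the ligands, *Tgfb3* was the 1 gene of the 10 called with GC in GR KO tumors, against 6.42% of all genes tested. It lies on chromosome 12 (chr12:86056745-86079041, minus strand). Its level was 9.88, 12.6, 20.5, 29.6 and 18.7 CPM in GR KO control tumors 1 to 5 and 39.4, 28.5, 40.4, 30.98 and 60.3 CPM with GC. The groups overlapped only through control tumor 4 and treated tumor 2. The log2 fold change was 1.18, SE 0.31, edgeR adjusted p = 0.0257, with an exact permutation p = 0.0159. Without GR KO control tumor 1 or 2 edgeR's adjusted p was 0.0752 or 0.0709, and without GR KO treated tumor 3 or 5 it was 0.0634 or 0.0945, each above the threshold.

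The GR KO control tumors with a high share of *Gm26924* held the 4 lowest *Tgfb3* values of their group. Without the 6 tumors above 5% the log2 fold change was 0.62, adjusted p = 0.846 by edgeR, which then called 0 of the 10 genes and 29 of all genes, against 1022 before. Without GR KO control tumor 4 it called 2 of the 10, *Ltbp1* and *Tgfb3*, and 2411 of all genes. Fibroblast markers differed between the same tumors: the 6 summed to 3477, 3678, 4332, 6643 and 4807 CPM in GR KO control tumors 1 to 5 and to 9648, 7817, 10983, 6943 and 10345 CPM with GC, without overlap. Of the 6, 4 were called higher, with the collagen gene *Col1a1* the most abundant, and 0 of the 6 were called by edgeR without the 6 tumors high in *Gm26924*. In parental tumors the 6 summed to 6341, 7098, 6558, 7132 and 6585 CPM in controls and to 10254, 7539.8, 10315, 7188 and 10261 CPM with GC, also without overlap. There edgeR called 0 of the 6, with 3 at an unadjusted p below 0.05. Their part and that of *Gm26924* in the *Tgfb3* result was not tested.

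In parental tumors *Tgfb3* stood at 24.7, 41.2, 38.3, 30.99 and 41.9 CPM in controls and at 38.4, 23.3, 41.0, 11.6 and 31.9 CPM with GC. The groups overlapped (log2 fold change -0.29, SE 0.30, edgeR adjusted p = 0.718). The parental change minus the GR KO change was -1.47 (SE 0.43, edgeR adjusted p = 0.1003). Between genotypes in control tumors, which share samples with both GC comparisons, the log2 fold change of *Tgfb3* was -0.98, SE 0.31, edgeR adjusted p = 0.0848. There edgeR called 0 of the 10 genes, against 2.25% of all genes, with 2 of the 10 and 3180 of all genes at an unadjusted p below 0.05, and DESeq2 called 1, *Tgfb3*. Without GR KO control tumor 4 edgeR called 3 (*Tgfb2*, *Tgfb3* and *Ltbp1*), and all genes called went from 358 to 1762. When the 6 tumors high in *Gm26924* were omitted edgeR called 0 genes in all.

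*Tgfb1* (chr7:25687002-25705077, plus strand) and *Tgfb2* (chr1:186622792-186705989, minus strand) differed between genotypes in culture. *Tgfb1* stood at 28.3, 47.2 and 21.6 CPM in parental and at 19.7, 12.7 and 15.6 CPM in GR KO DMSO cultures. *Tgfb2* stood at 21.7, 28.8 and 18.7 CPM in parental and at 11.4, 11.3 and 10.0 CPM in GR KO DMSO cultures. For both ligands all 3 GR KO cultures lay below all 3 parental ones. The exact permutation p was 0.1 for each, the smallest that 3 against 3 allow. *Ltbp3* and *Ltbp4*, which were not called, were also lower in GR KO without overlap. The share of all genes that separated in this way was not counted. *Tgfb2* had a log2 fold change of -1.09, SE 0.18, edgeR adjusted p = 0.00335, and *Tgfb1* one of -1.02, SE 0.28, edgeR adjusted p = 0.0427. Together with *Lrrc32*, 3 of the 9 genes tested were called lower and 0 higher, against 8.22% of all genes called in either direction.

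The call of *Tgfb1* was close to the threshold. Its adjusted p by edgeR was 0.0728 or 0.150 without parental DMSO culture 1 or 2, and 0.0637, 0.171 or 0.109 without GR KO DMSO culture 1, 2 or 3. The calls of *Tgfb2* and *Lrrc32* held in all 6 fits that each left out a culture. With GC *Tgfb2* was at 33.2 and 30.0 CPM in parental cultures, above all 3 DMSO cultures, but its log2 fold change was not called (0.44, SE 0.20, edgeR adjusted p = 0.578). With all tumors in the fit, neither ligand was called in any GC or genotype comparison of tumors.

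None of the latent TGF-β binding proteins was called with GC in tumors. *Ltbp1* was at 54.3 ± 7.76 CPM in parental control and 47.8 ± 5.77 CPM in parental GC-treated tumors, and *Ltbp2* at 55.3 ± 13.4 and 55.3 ± 26.3 CPM (SD, n = 5 each). *Ltbp3* was at 483 ± 118 and 389.7 ± 57.8 CPM, and *Ltbp4* at 60.7 ± 10.3 and 74.5 ± 12.5 CPM, in the same groups (SD, n = 5 each). All 4 overlapped by treatment in both genotypes. The lowest adjusted p of the 4 was 0.127 by edgeR, for *Ltbp1* in GR KO tumors (log2 fold change 0.50, SE 0.20). Exons of *Ltbp2*, *Ltbp3*, *Itgav*, *Tgfb2* and *Tgfb3* overlap exons of genes on the opposite strand. How featureCounts treated strand is not named in the methods, which state that defaults applied where nothing else was given, and the default ignores strand. The counts of these 5 genes may thus include reads of the genes opposite and are uncertain to that extent.

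Tumors and cultures differed for the binding proteins in both directions. *Ltbp1* was at 167 ± 19.5 CPM in parental and 174 ± 23.0 CPM in GR KO DMSO cultures (SD, n = 3 each), above the control tumors of each genotype. Its log2 fold change from culture to tumor was -1.62, SE 0.20, edgeR adjusted p = 1.00e-07 in the parental line and -2.19, SE 0.21, edgeR adjusted p = 2.03e-10 in GR KO. *Ltbp2* had 12, 0 and 8 counts in parental DMSO cultures and 5 and 1 with GC, 0, 5 and 0 in GR KO DMSO cultures and 0 in all 3 with GC. It failed the filter there, so 9 of the 10 genes were tested within cultures.

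Between parental control tumors and DMSO cultures 8 of the 10 genes were called, 7 of them higher in tumors, against 46.7% of all genes tested. Between GR KO control tumors and DMSO cultures all 10 were called, 9 of them higher in tumors, against 54.8%. In each case the gene lower in tumors was *Ltbp1*. With the 6 tumors high in *Gm26924* left out the counts were 9 and 5, the latter *Lrrc32*, *Tgfb3*, *Ltbp1*, *Ltbp2* and *Ltbp3*. The tissue, the host cells in it and the separate handling of tumors and cultures cannot be told apart in these comparisons.

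The integrin αvβ8 pairs the products of *Itgav* and *Itgb8*. *Itgb8* was sparse, at 0.631, 5.61, 2.56, 3.53 and 2.88 CPM in parental control tumors and 7.77, 13.9, 4.97, 5.68 and 6.93 CPM with GC. The groups overlapped only through control tumor 2 and treated tumor 3, and the log2 fold change was not called (1.37, SE 0.53, edgeR adjusted p = 0.233). *Itgav* stood at 249, 368, 229.6, 292 and 304 CPM in parental control tumors and at 241, 954, 267, 378 and 312 CPM with GC, where treated tumor 2 lay far above the others (log2 fold change 0.59, SE 0.36, edgeR adjusted p = 0.480). In GR KO tumors *Itgb8* ranged from 1.15 to 8.41 CPM in controls and from 1.91 to 4.36 CPM with GC. In GR KO tumors and in cultures neither gene was called with GC.

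**Figure D2:**
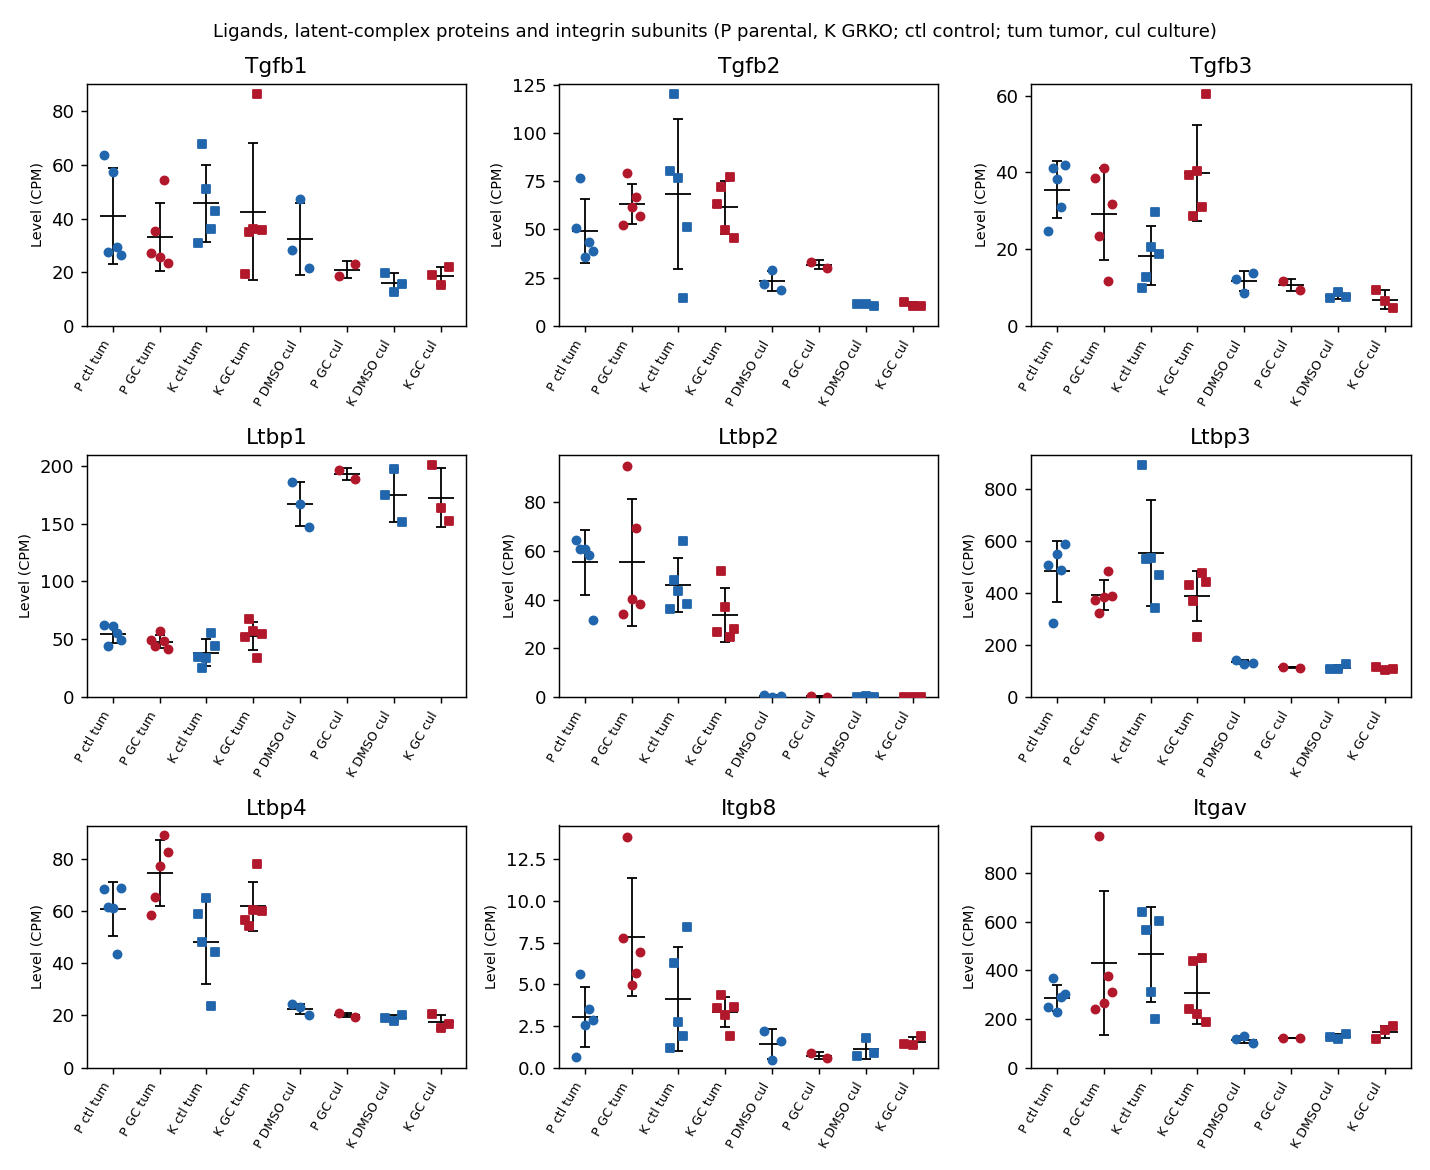
Level in CPM (vertical axes) of the other 9 genes in each library of the 8 groups (horizontal axes; P parental, K GR KO); circles are parental, squares GR KO, blue control or DMSO, red GC, and bars show the mean and SD. *Ltbp1* is higher in cultures than in tumors, and *Ltbp2* is at or near 0 in cultures.

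**Figure D3:**
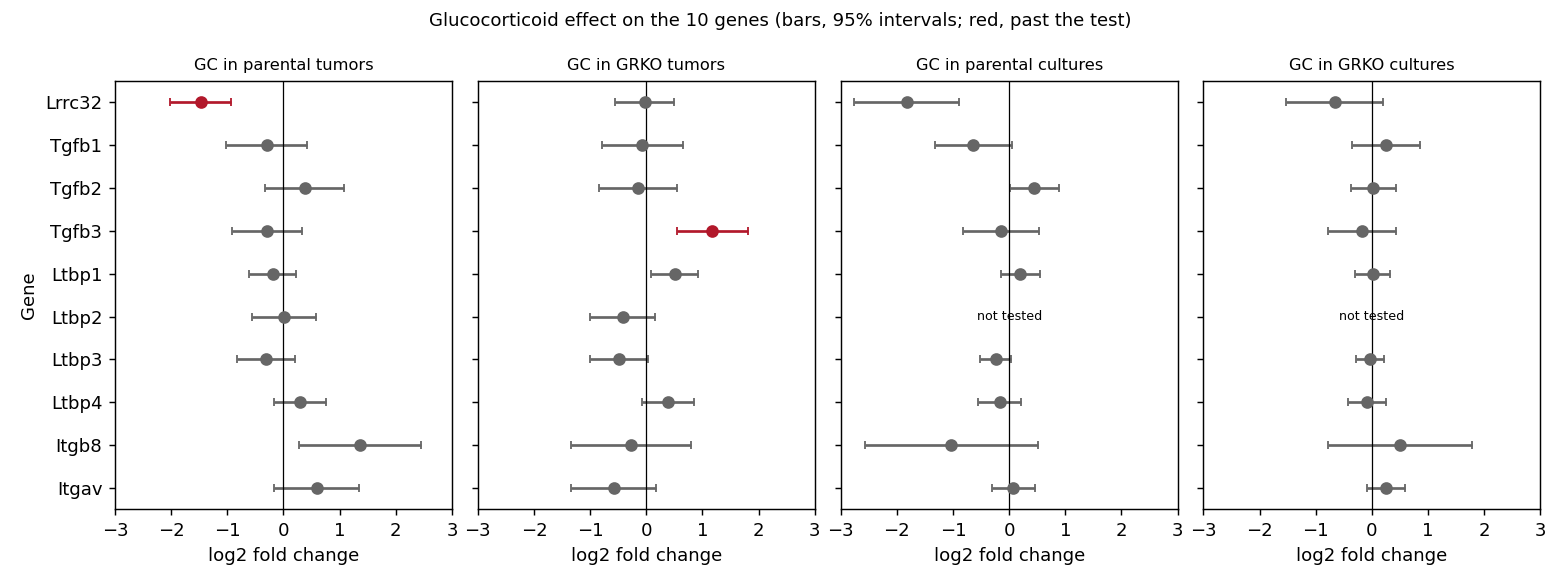
Log2 fold change with GC (horizontal axes) of the 10 genes (vertical axis) in tumors and cultures of both genotypes; points are edgeR estimates, bars 95% intervals, and red marks genes called. *Lrrc32* in parental tumors and *Tgfb3* in GR KO tumors are the genes called, and *Ltbp2* was not tested in cultures.

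The median log2 fold change with GC over the 10 genes was -0.09 in parental and -0.11 in GR KO tumors, beside 0.00 and 0.05 over all genes. Over the 9 genes tested in cultures it was -0.17 in parental and 0.01 in GR KO cells, beside 0.00 and 0.02. Between genotypes in DMSO cultures it was -0.35, beside 0.01 over all genes. These medians describe the genes and are no test.

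Other genes of the pathway were counted from fixed lists, beside which 0.779% of all genes were called with GC in parental tumors, 6.42% in GR KO tumors and 0.878% in parental cultures, and 8.22% between genotypes in DMSO cultures. Of 11 genes of TGF-β activation, such as proteases and further integrin subunits, edgeR called 0 with GC in parental tumors, with 6 at an unadjusted p below 0.05. After omission of the 6 tumors high in *Gm26924* it called 1 there, the protease gene *Plau* (adjusted p = 0.0336). In GR KO tumors 2 were called lower, *Nrros*, which encodes a GARP relative of myeloid cells (log2 fold change -0.79, SE 0.18), and the integrin subunit *Itgb3* (log2 fold change -0.93, SE 0.24), and neither was called without the 6 tumors high in *Gm26924* (adjusted p = 0.193 and 0.883). In parental cultures 1 of the 9 tested fell with GC, *Itgb3* (log2 fold change -2.32, SE 0.45, edgeR adjusted p = 0.0354). Between genotypes in DMSO cultures the matrix protease *Mmp2* (log2 fold change -4.86, SE 0.30) and *Itgb3* (log2 fold change -1.98, SE 0.38) were lower in GR KO. *Thbs1*, whose product thrombospondin can activate latent TGF-β, was higher (log2 fold change 0.99, SE 0.17).

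Matrix genes that store latent TGF-β numbered 8, of which 7 were tested in cultures. Of the 7, 5 were called lower in GR KO than in parental DMSO cultures, where 757 of all 12525 genes were called lower and 273 higher. The decorin gene *Dcn* stood at 1.48 ± 0.499 CPM in parental cells and had 0 counts in all 3 GR KO cultures. *Emilin1* stood at 10.5 ± 4.35 CPM in parental and 0.0911 ± 0.158 CPM in GR KO cells, and the fibromodulin gene *Fmod* at 2.70 ± 1.48 and 0.164 ± 0.284 CPM (SD, n = 3 each), each with 0 counts in some GR KO cultures. With GC, *Tgm2*, which encodes a crosslinking enzyme, rose in parental cultures (log2 fold change 1.48, SE 0.17, edgeR adjusted p = 0.00141). The fibrillin gene *Fbn2* rose in GR KO tumors (1.28, SE 0.22, edgeR adjusted p = 0.00269), a call lost without the 6 tumors high in *Gm26924* (1.90, adjusted p = 0.0577). In parental tumors edgeR called 0 of the 8 with GC, with 4 at an unadjusted p below 0.05, and 1, *Fbn2*, without those 6 tumors (log2 fold change 0.95, adjusted p = 0.0323).

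Receptors and Smads gave few calls. Of 10 such genes edgeR called 0 with GC in tumors of either genotype, with 1 in parental and 2 in GR KO tumors at an unadjusted p below 0.05. In parental cultures *Smad3*, a transcription factor downstream of the receptor, fell with GC (log2 fold change -0.77, SE 0.15, edgeR adjusted p = 0.0323). In DMSO cultures the receptor gene *Acvrl1* was lower in GR KO (log2 fold change -4.41, SE 0.67, edgeR adjusted p = 0.00178). Of 8 genes that respond to TGF-β, 1 was called lower with GC in parental tumors, the transcription factor *Klf10* (log2 fold change -1.32, SE 0.27, edgeR adjusted p = 0.0153; without the 6 tumors high in *Gm26924* -1.35, adjusted p = 0.0222). Its parental change minus its GR KO change was -1.98, SE 0.38, edgeR adjusted p = 0.0330, and without the 6 tumors high in *Gm26924* it was -1.98, adjusted p = 0.540. In GR KO DMSO cultures *Tgfbi* was lower than in parental ones (log2 fold change -2.48, SE 0.49).

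Other cells that can carry GARP were followed by their marker genes, and with GC 0.779% of all genes were called in parental and 6.42% in GR KO tumors. In bulk RNA, fewer cells of a type and less RNA per cell cannot be told apart. The 6 endothelial markers summed to 67.4, 56.4, 48.3, 73.1 and 51.0 CPM in parental control tumors and to 38.0, 19.4, 29.6, 37.5 and 36.1 CPM with GC. In GR KO tumors they summed to 101, 86.2, 106, 113 and 89.4 CPM in controls and to 52.1, 58.0, 50.5, 45.5 and 50.2 CPM with GC. In both genotypes every treated tumor lay below every control. The most abundant marker in each tumor group was *Kdr*, a receptor for vascular endothelial growth factor. With GC edgeR called 0 of the 6 in parental tumors, with 3 at an unadjusted p below 0.05, and 1 in GR KO tumors, *Kdr* (log2 fold change -1.32, SE 0.26, edgeR adjusted p = 0.00567; without the 6 tumors high in *Gm26924* -1.20, adjusted p = 0.444). In cultures the sum lay between 0.874 and 4.89 CPM, and *Tek* had 0 counts in all 11.

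The 6 regulatory T cell markers summed to 167, 127, 85.4, 160.2 and 76.7 CPM in parental control tumors and to 74.4, 89.7, 55.1, 70.6 and 54.2 CPM with GC, and these overlapped. For GR KO tumors they summed to 234, 218, 180.1, 246 and 162 CPM in controls and to 55.7, 84.7, 51.6, 46.3 and 47.4 CPM with GC, without overlap. *Tnfrsf4* was the most abundant in parental and *Tnfrsf18* in GR KO tumors, both receptors of activated T cells. In parental tumors edgeR called 0 of the 6, with 5 at an unadjusted p below 0.05. With GC in GR KO tumors, 3 were called lower: *Tnfrsf4* (log2 fold change -2.29, SE 0.31), the lineage factor *Foxp3* (log2 fold change -2.22, SE 0.48) and *Tnfrsf18* (log2 fold change -2.12, SE 0.23). When the 6 tumors high in *Gm26924* were omitted, *Tnfrsf4* and *Tnfrsf18* were called and *Foxp3* was not (adjusted p = 0.197). In cultures the 6 summed to between 4.97 and 9.90 CPM. The transcription factor gene *Ikzf2* was the most abundant there, at 5.23 ± 1.35 CPM in parental and 6.61 ± 2.21 CPM in GR KO DMSO cultures (SD, n = 3 each), *Tnfrsf4* was counted in each culture, and *Foxp3*, *Il2ra* and *Ctla4* had 0 counts in all 11. The part of endothelial and regulatory T cells in the tumor levels of *Lrrc32* was not tested.

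Platelets, which can carry GARP, and neutrophils were followed by their markers as well. Of 5 platelet markers 4 were tested in tumors, *Pf4* was the most abundant and *Gp9* had 0 counts in every library. With GC 0 were called in parental tumors, with 0 at an unadjusted p below 0.05, and 1 in GR KO tumors, the integrin subunit *Itga2b* (log2 fold change -1.57, SE 0.40; without the 6 tumors high in *Gm26924* -1.86, adjusted p = 0.287). Platelet sums were 229, 324, 299, 228 and 317 CPM in parental control and 282, 197, 254, 320.1 and 319 CPM in parental GC-treated tumors, which overlapped. They were 152, 204, 221, 290.3 and 301 CPM in GR KO control and 183, 245, 239, 300.0 and 229 CPM in GR KO GC-treated tumors, which overlapped too. *Pf4* made up most of the sum, with a mean of 257 CPM beside a summed mean of 279 CPM in parental control tumors. *Gp1bb* was also counted in parental DMSO cultures, at 10.0 CPM. These sums thus need not follow platelets alone. The 5 neutrophil markers, led by *S100a8*, summed to 22.5, 68.1, 239, 33.1 and 1234 CPM in parental control tumors and to 14.8, 9.73, 11.2, 22.0 and 38.6 CPM with GC, also with overlap. There 2 of the 5 were called lower, *S100a9* (log2 fold change -5.03, SE 0.98) and *S100a8* (log2 fold change -3.96, SE 0.94). Both were also called without the 6 tumors high in *Gm26924* (*S100a9* -5.31, adjusted p = 0.0114, and *S100a8* -4.24, adjusted p = 0.0359). In GR KO tumors the 5 summed to 423, 767, 264, 188 and 1013 CPM in controls and to 96.4, 49.1, 228, 196 and 129 CPM with GC, which overlapped. There edgeR called 0 of the 5, with 2 at an unadjusted p below 0.05, *S100a9* (log2 fold change -2.18, SE 0.86, edgeR adjusted p = 0.119) and *S100a8* (-1.91, SE 0.86, edgeR adjusted p = 0.173). The part of neutrophils in the *Lrrc32* result was not tested either.

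The remaining marker lists were counted with GC in tumors. In parental tumors the keratinocyte gene *Lor* was called higher (log2 fold change 1.19, SE 0.24), and edgeR called 0 of 6 macrophage, 0 of 6 T cell and 0 of 5 skeletal muscle markers, with 2, 1 and 2 at an unadjusted p below 0.05. With GC in GR KO tumors, the macrophage gene *Mrc1* (log2 fold change 1.20, SE 0.32) and the keratinocyte genes *Krt10* (log2 fold change 2.13, SE 0.49) and *Krt1* (log2 fold change 1.85, SE 0.32) were called higher. *Krt14* (log2 fold change -1.42, SE 0.39) and the muscle gene *Myh4* (log2 fold change -1.33, SE 0.35) were called lower there, and 0 of the 6 T cell markers were called, with 2 at an unadjusted p below 0.05 by edgeR. With the 6 tumors high in *Gm26924* left out none of *Mrc1*, *Krt10*, *Krt1*, *Krt14* and *Myh4* was called, and *Lor* in parental tumors was.

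Over the 20 tumors, the 5 genes whose log2(CPM + 1) was most like that of *Lrrc32* were *Skil* (Pearson r 0.914), *Cpsf4* (0.869), *Snrpb* (0.864), *Cdc34* (0.858) and *Fads1* (0.854), among 15918 genes. Over the 11 cultures they were *Sox9* (0.975), *Hao1* (0.971), *Cdon* (0.971), *G6pdx* (0.968) and *Fam13c* (0.964), among 12524 genes. None of the other 9 genes described here was among the 100 most alike in tumors, and none of the 8 tested beside *Lrrc32* was in cultures. These values describe samples that share group differences.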

How the data were processed

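The authors sequenced 3′ ends (QuantSeq), aligned the reads to GRCm38 and deposited integer read counts per gene. They name no strand setting, and defaults, which ignore strand, applied where nothing else was given. Genes at 0.5 CPM or more in at least 3 samples were fitted with edgeR 4.0.16 (quasi-likelihood, TMM factors, R 4.3.3) over the 4 tumor groups, the 4 culture groups or all 8, with Benjamini-Hochberg adjustment over all genes tested. DESeq2 1.42.0 was an alternative. Intervals are 95%, from the t distribution of edgeR's test. Exact permutation tests used log2(CPM + 1). Positions are from the GRCm38 GENCODE annotation. The fits were tested on simulated data. There edgeR recovered fewer of all changed genes, in tumors and in all groups together, than first required; the criterion was then replaced by ones on well-powered genes and on calibration, so a gene not called may still have changed. DESeq2 recovered more, with more false calls. Values are given for *Lrrc32*, for every member called, and for up to 3 called genes per list and direction by size of change. Lists cover the TGF-β pathway, glucocorticoid response and cell markers. The members and lists were chosen with earlier results of these data known. The floor of 3 counts covers counting error only.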

Additional observations from a re-analysis of the deposited data

Results flagged for a closer look

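In groups of 5 tumors, the gap between the highest or lowest tumor and the nearest of the others was compared with Dixon's 95% critical value. Chance alone gives such a gap in about 1 of 20 groups, and it was found in 9 of 108 groups examined. In GR KO GC-treated tumor 4, which was also high in *Gm26924*, *Tgfb1* stood at 86.6 CPM (19.2 to 36.1 CPM in the other 4 of its group) and *Ltbp4* at 77.9 CPM (54.1 to 60.2 CPM in the other 4 of its group). *Ltbp2* in parental control tumor 5 stood at 31.5 CPM (58.4 to 64.4 CPM in the other 4 of its group), and *Itgav* in parental GC-treated tumor 2 at 954 CPM (241 to 378 CPM in the other 4 of its group).

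The summed markers of regulatory T cells stood at 84.7 CPM (46.3 to 55.7 CPM in the other 4 of its group) in GR KO GC-treated tumor 2, and those of macrophages at 7316 CPM (3858 to 4631 CPM in the other 4 of its group) in the same tumor. T cell markers summed to 104 CPM (30.9 to 45.0 CPM in the other 4 of its group) in GR KO control tumor 4. In parental control tumor 5, neutrophil markers summed to 1234 CPM (22.5 to 239 CPM in the other 4 of its group) and keratinocyte markers to 2991 CPM (1137 to 1458 CPM in the other 4 of its group). What sets these tumors apart was not tested.

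For some list genes the change with GC was tested to differ by genotype, as the parental change minus the GR KO change on the log2 scale. In tumors this was -1.98 for *Klf10* (edgeR adjusted p = 0.0330). In cultures it was 3.14 for *Tsc22d3* (edgeR adjusted p = 0.000332), 3.00 for *Per1* (0.00415), 1.33 for *Tgm2* (0.0464) and 1.30 for *Sgk1* (0.00927). *Lrrc32* did not pass this test in tumors or in cultures.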

How the results depend on the processing

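Each alternative changed 1 choice, and all but the omission of tumors high in *Gm26924* were fixed before these fits were made, though with earlier results of the same data known. Of 425 values recomputed under these fixed alternatives, 393 kept their direction and their side of the threshold or stayed within 1.5 times a count. The call of *Lrrc32* with GC in parental tumors, between GC-treated tumors and between DMSO cultures held under all alternatives run.

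With DESeq2 the members called were 2 for the difference of GC effects in tumors, where *Lrrc32* was -1.42, 1 between control tumors, and 1 with GC in parental cultures, where *Lrrc32* was -1.83 on the log2 scale. Without a filter on low counts 1 member was called in parental cultures, *Lrrc32* (-1.83). The call of *Tgfb1* between DMSO cultures was lost with at least 10 counts required in every sample (edgeR adjusted p = 0.0522) and with only the groups compared in the fit (0.0652). The cause of these changes was not tested.

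Leaving out each sample in turn, the members called ran from 0 to 2 for the difference of GC effects in tumors, from 0 to 3 between control tumors and from 0 to 2 with GC in GR KO tumors. *Lrrc32* ran from -1.64 to -1.22 for that difference. With GC in GR KO tumors, where it was -0.03 and not called, it ran from -0.26 to 0.16 and changed sign in 5 fits: 0.00 and 0.16 without control tumor 2 or 3, and 0.06, 0.05 and 0.05 without treated tumor 1, 2 or 3.

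Without the 6 tumors high in *Gm26924*, an alternative chosen after seeing the data, *Tgfb3* lost its call with GC in GR KO tumors. Fewer members were then called between GR KO control tumors and cultures. The remaining GR KO control tumor is assumed to vary like the other groups, and the cause was not tested.

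With the replicate number as a block, *Lrrc32* was -1.49 with GC in parental tumors (edgeR adjusted p = 0.00764) and -1.45 for the difference of GC effects in tumors (0.0593). Between GC-treated tumors it was 1.49, with GC in parental cultures -1.67, and between DMSO cultures -2.98, where *Tgfb1* lost its call (edgeR adjusted p = 0.0852). Residuals of samples with the same number had a mean r of 0.0581 over 30 pairs of samples in tumors, from -0.546 to 0.415. In cultures the mean was 0.0199 over 15 pairs, from -0.550 to 0.618. Samples of other groups with different numbers had means of -0.0128 in tumors and -0.0121 in cultures. Whether the numbers pair samples cannot be told from values this spread, and the fit without the block was kept as the main one.

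The number of all genes called also depended on the method. With DESeq2 it was 378 with GC in parental tumors, 1779 in GR KO tumors, 817 for their difference, 1004 between control tumors, 289 between treated tumors, 251 with GC in parental cultures and 128 for the difference in cultures. With edgeR these were 124, 1022, 31, 358, 101, 110 and 37. Without the tumors high in *Gm26924* edgeR called 0 genes for the difference in tumors and 170 between treated tumors. *Ltbp2* failed the low-count filter in cultures, and whether depth limits it there was not tested.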
